A study of Mus musculus with 4 samples.

Results

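Transcripts of the Notch pathway were described in sorted pancreatic β cells of mouse neonates at day 13. The 10 genes, chosen by name, were the receptor genes Notch1, Notch2 and Notch3, the ligand genes Dll1, Jag1 and Jag2, the gene of the DNA-binding factor Rbpj, and the genes Hes1, Hes6 and Hey1 of the Hes and Hey factors. Each matched 1 of the 51912 genes in the table by its symbol. The data are RNA sequencing counts of 4 libraries. The 2 Robo mutant libraries came from mice with a homozygous deletion allele of Robo1 (Robo1delta/delta) and homozygous conditional alleles of Robo2 (Robo2flx/flx). The 2 control libraries came from mice with wild-type alleles of both genes (Robo1+/+ and Robo2+/+). All 4 carried 1 copy of Ucn3-Cre, a recombinase driven from a gene of maturing β cells, and 1 copy of Rosa26-lsl-H2B-mCherry, the nuclear reporter on which the cells were sorted. The labels give the Robo1 allele as deleted outright, whereas loss of Robo2 requires Cre. The labels do not say how many animals a library holds, so p-values measure the spread between libraries, which may be technical.

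Notch receptors are membrane proteins that are cut when a Delta or Jagged ligand on a neighbouring cell binds them. The freed intracellular domain enters the nucleus, where it joins RBPJ and Mastermind coactivators and turns on genes such as Hes1 and Hey1, whose products are transcriptional repressors. In the embryonic pancreas, Hes1 holds back Neurog3, the gene that commits progenitors to the endocrine fate, and committed cells present Dll1 to their neighbours. Hes6 belongs to the same protein family as Hes1 but opposes it, and Notch3 is known as a receptor of vascular mural cells.

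Among the 10 genes, Notch2 and Dll1 stood higher and Rbpj and Jag2 lower in both Robo mutant libraries than in both control libraries, and Notch1 was slightly higher in both. Notch2 averaged 4.49 ± 0.589 CPM in Robo mutant cells and 1.68 ± 0.509 CPM in control cells, a 2.68-fold higher mean. Rbpj averaged 24.3 ± 0.108 CPM in Robo mutant cells and 37.4 ± 4.402 CPM in control cells, a 1.54-fold lower mean (SD, n = 2 each throughout; CPM are counts scaled to a common library total with TMM factors). None of the 10 passed edgeR's quasi-likelihood test over all genes at an adjusted p of 0.05, nor did any other gene, so that 0% of the 16517 tested genes were called. At an unadjusted p under 0.05 edgeR had 1 of the 10 genes, Rbpj, on the lower side, against 1025 or 6.21% of all tested genes (1.99% higher and 4.21% lower). DESeq2 called 151 genes (0.914%), none of them among the 10, and had Rbpj and Notch2 at an unadjusted p under 0.05, as it had 7.32% of all tested genes. Limma called 0 genes and had 1042 at an unadjusted p under 0.05, with 2 of the 10, Rbpj and Notch2, among them. In 5 of the 10 genes the genotypes did not overlap, 3 with the Robo mutant libraries above and 2 with them below. The same held for 36.6% of all tested genes, 16.1% above and 20.4% below, so 5 of 10 is not read as particular to these genes. The median log2 change of the 10 was 0.04, against -0.01 over all tested genes.

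Stretches of the 250 bases before the RefSeq start sites (GRCm38.p6) are shown for Rbpj, Notch2 and Dll1. Among the 5 members that did not overlap between genotypes, these had the largest log2 changes in size. Capitals mark matches, on either strand, to TGGGAA (the core of the RBPJ site), CACNAG (the N box bound by Hes factors), CACGTG (an E box) or CACGCG (a class C site, also bound by Hes and Hey factors). No matches overlapped. Each stretch begins at the far end of this window and stops before the first base that lies in an annotated exon of the gene. For Rbpj and Notch2 the bases nearest the start are therefore not shown. Rbpj is shown at chr5:53590096-53590213 on the plus strand, Notch2 at chr3:98013288-98013526 on the plus strand and Dll1 at chr17:15376933-15377182 on the minus strand. Rbpj and Dll1 have 2 listed starts each. The start shown for Dll1 is the one with a match, and its other start has none.
Rbpj: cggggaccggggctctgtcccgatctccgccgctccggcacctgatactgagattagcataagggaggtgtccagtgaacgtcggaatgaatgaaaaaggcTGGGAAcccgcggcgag
Notch2: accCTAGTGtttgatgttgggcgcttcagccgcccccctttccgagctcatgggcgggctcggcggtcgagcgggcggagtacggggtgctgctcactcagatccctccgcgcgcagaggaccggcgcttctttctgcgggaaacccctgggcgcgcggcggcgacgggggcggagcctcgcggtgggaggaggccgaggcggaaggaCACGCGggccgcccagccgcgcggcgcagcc
Dll1: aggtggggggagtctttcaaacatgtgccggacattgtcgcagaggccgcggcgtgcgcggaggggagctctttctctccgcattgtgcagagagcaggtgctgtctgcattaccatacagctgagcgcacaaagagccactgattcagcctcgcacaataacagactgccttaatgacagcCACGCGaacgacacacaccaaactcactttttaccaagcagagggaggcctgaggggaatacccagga
The Rbpj stretch holds 1 RBPJ core, 149 bases before the start, and a second on the other strand lies 65 bases before it in sequence not shown. Within the 250 bases before the start, an RBPJ core was found at 21.6% of the 32851 RefSeq start sites in the table. Of the 8 members in the table, Rbpj alone had one. The Notch2 stretch holds 1 N box and 1 class C site, and the Dll1 stretch 1 class C site. In the same 250 bases, N boxes were found at 36.7% of all start sites, class C sites at 7.62% and E boxes at 6.02%. The stretches shown for Rbpj and Notch2 are shorter than this window, at 118 and 239 bases. These matches describe letters and are not bound sites, and the table holds no entry for Hes1 and Hey1.

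As a check of the labels, Robo1 had 22.3 and 21.02 CPM in Robo mutant libraries 1 and 2, against 48.5 and 104 CPM in control libraries 1 and 2. Robo1 reads thus remained in the Robo mutant libraries, at 1114 and 956 counts, though the labels give a deletion allele. The cause was not tested. Robo2 had 32.7 and 25.6 CPM in Robo mutant libraries 1 and 2, against 75.3 and 118 CPM in the control libraries. The means were 3.52-fold lower for Robo1 and 3.32-fold lower for Robo2 in Robo mutant cells. Neither passed edgeR (adjusted p = 0.680 for both), whereas DESeq2 called both (adjusted p = 0.00186 for Robo1 and 1.99e-05 for Robo2). Library totals ranged from 38886129 to 49593712 counts. The 10 β-cell markers, Ins2 the most abundant, were above 0 in all libraries and summed to 227525 and 160290 CPM in Robo mutant libraries 1 and 2 and to 231397 and 197648 CPM in control libraries 1 and 2. Transcripts of other cells were present too. The 7 α-cell markers, Gcg the most abundant, summed to 19312 and 24143 CPM in Robo mutant libraries 1 and 2 and to 23827 and 11902 CPM in control libraries 1 and 2. They were lowest in control 2, where Dll1, Hes1 and Notch1 were lowest too, and their part in those values was not tested. Acinar and stromal markers set Robo mutant 2 apart. Its 15 acinar markers, Cel the most abundant, summed to 54404 CPM, against 3476 CPM in Robo mutant 1 and 5650 and 850 CPM in the controls. Its 12 stromal markers summed to 15.6 CPM, against 1127 CPM in Robo mutant 1 and 2443 and 713 CPM in the controls. In a bulk library, fewer cells of a type and less RNA per cell cannot be told apart.

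Among the members, levels per exon length spanned a wide range. Divided by the kilobases of annotated exon, Hes6 was the most abundant of the 10, between 44.5 and 55.0 CPM per kb over the 4 libraries, above 95.2% of tested genes in its mean. Hes1 followed at 5.29 to 13.6 CPM per kb and Jag2 at 5.39 to 6.87 CPM per kb, and these neighbours overlapped. Dll1 lay at 2.33 to 5.003 CPM per kb, below the lowest Jag2 value, and overlapped with Rbpj at 1.90 to 3.18 CPM per kb. With the longest coding transcript as the length instead, Rbpj ranked above Dll1 and the other 8 ranks held.

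The receptors were lower, and Notch1 did not overlap with Rbpj. Notch1 lay in a narrow band of 0.966 to 1.28 CPM per kb. Jag1, at 0.272 to 1.71 CPM per kb, and Notch3, at 0.0353 to 1.54 CPM per kb, each ran across the whole Notch1 band. Notch2 lay at 0.122 to 0.455 CPM per kb, under Notch1 in every library and inside the range of Notch3. Hey1 was the lowest by its mean, at 0 to 0.202 CPM per kb, overlapping with Notch2, with a mean above only 2.82% of tested genes.

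**Figure D1:**
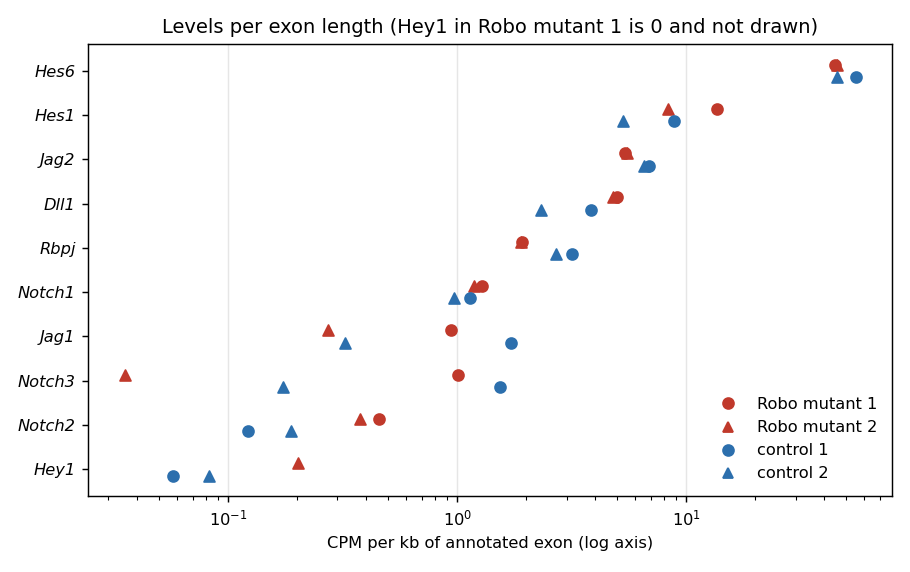
CPM per kilobase of annotated exon (log axis) for each of the 10 genes, with 1 point per library, red for Robo mutant and blue for control. Hes6 lies between 44.5 and 55.0 CPM per kb, and Notch3 and Jag1 spread more widely than Notch1, which stays between 0.966 and 1.28.

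The 3 receptor genes differed in how they varied. Notch1 (ENSMUSG00000026923, chromosome 2, 26457903 to 26516663, minus strand, GRCm38) had 18.3 and 16.9 CPM in Robo mutant libraries 1 and 2, against 16.1 and 13.7 CPM in control libraries 1 and 2. Both Robo mutant libraries were above both controls, but the lower mutant value was close to the higher control value. The log2 change was 0.24 ± 0.24 (SE; edgeR, adjusted p = 1.00). Exons of the opposite-strand gene 0610009E02Rik, which had between 22 and 50 counts per library, overlap those of Notch1, which had 560 to 914 counts.

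Notch2 (ENSMUSG00000027878, chromosome 3, 98013527 to 98150361, plus strand), the receptor gene whose mean level per length was the lowest of the 3, had 4.90 and 4.07 CPM in the Robo mutant libraries, against 1.32 and 2.04 CPM in the control libraries. Both mutant libraries were above both controls, and the groups did not overlap. These levels rest on 245 and 185 counts in the Robo mutant libraries and on 63 and 83 counts in the control libraries. The log2 change of 1.42 ± 0.60 (SE) was the largest in size among the 10 and gave an adjusted p of 0.864 in edgeR (unadjusted 0.0716) and of 0.683 in DESeq2 (unadjusted 0.04999). The change lay between 1.04 and 1.77 under every alternative tried, at 1.55 without Robo mutant 2, with adjusted p from 0.308 to 1.00 over them. Marker sums of some other cells were also higher in both Robo mutant libraries. The 11 immune markers summed to 74.8 and 88.5 CPM in the Robo mutant libraries, against 65.2 and 36.5 CPM in control libraries 1 and 2. In each library 10 of the 11 were above 0, though none was at 0 in all 4. All 11 had a higher fitted level in Robo mutant cells, with a median log2 change of 1.13 (edgeR). Each control library had a marker at 0. A marker at 0 in both controls enters the test only through Robo mutant counts, which fixes its direction and leaves its size without an upper bound. The largest fitted change is therefore not given. In 3 of the 11 markers (27.3%) the genotypes did not overlap, all 3 with the Robo mutant libraries above. Of all tested genes 36.6% did not overlap, 16.1% above and 20.4% below. DESeq2 called 1 of the 11 markers, next to 0.914% of all tested genes. The 12 duct markers summed to 1675 and 2297 CPM in the Robo mutant libraries, against 1475 and 1476 CPM in the control libraries. Cftr was at 0 in all 4. Of the 11 tested duct markers, 3 lay above both controls in both Robo mutant libraries, Krt8 and Krt18 among them. Krt7 lay below, at 404 and 387 CPM in the Robo mutant libraries against 410 and 432 CPM in the controls. The rest overlapped. The genotypes thus did not overlap in 4 of the 11 duct markers (36.4%), next to 36.6% of all tested genes. The 4 δ-cell markers summed to 2506 and 1289 CPM in the Robo mutant libraries, against 1063 and 981 CPM in the control libraries, with Sst the most abundant. Sst and Rbp4 lay above both controls in both Robo mutant libraries, whereas Hhex and Ghsr overlapped. Krt7, Krt18, Rbp4, Hhex and Ghsr were named after their values were seen. The immune, duct and δ-cell sums separate the genotypes as Notch1, Notch2 and Dll1 do, though not every marker in them does. The part of these cells in the Notch1, Notch2 and Dll1 values was not tested.

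Notch3 (ENSMUSG00000038146, chromosome 17, 32120820 to 32166852, minus strand) had 8.14 and 0.286 CPM in Robo mutant libraries 1 and 2, against 12.5 and 1.399 CPM in control libraries 1 and 2. One library of each genotype was high and the other low, so the genotypes overlapped. The highest library was 43.7 times the lowest, the widest ratio among the 9 members detected in every library. The log2 change was -0.72 ± 1.71 (SE; edgeR, adjusted p = 1.00). The change was 0.23 without Robo mutant 2, 1.59 without control 1 and -4.59 without Robo mutant 1, so the direction rests on single libraries. The low Notch3 libraries had 13 counts in Robo mutant 2 and 57 in control 2. The antisense gene Gm17276, whose exons overlap those of Notch3, had 4 counts in Robo mutant 2 and 36 in control 2, and reads of sense and antisense transcripts cannot be told apart in libraries that carry no strand mark.

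**Figure D2:**
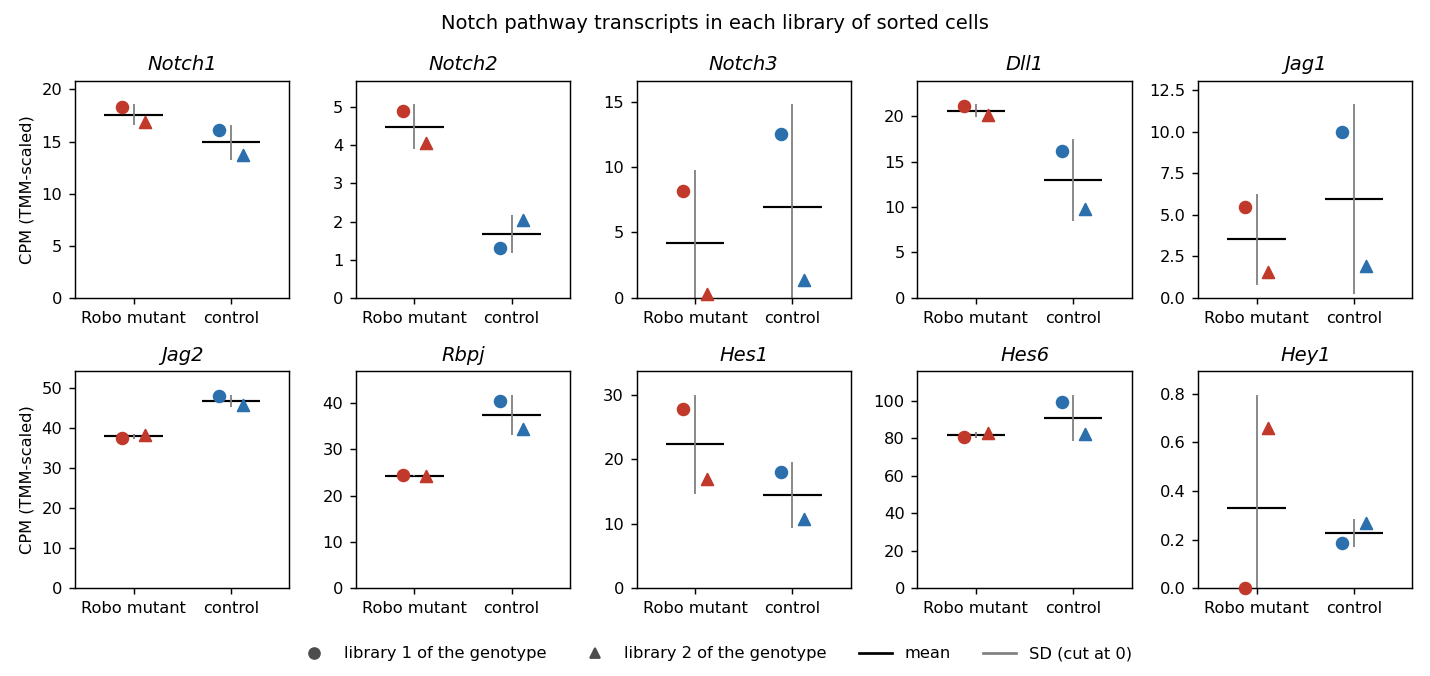
CPM (TMM-scaled, linear axis from 0) of each gene in the 4 libraries, Robo mutant left and control right, with the mean (black line) and SD (grey bar, cut at 0) over 2 libraries. Notch2 and Rbpj separate the genotypes, while Notch3 and Jag1 have 1 high and 1 low library in each.

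Of the ligand genes, Dll1 was higher and Jag2 lower in both Robo mutant libraries. Dll1 (ENSMUSG00000014773, chromosome 17, 15367354 to 15376872, minus strand), the Delta-like ligand of endocrine-committed cells, had 21.1 and 20.1 CPM in the Robo mutant libraries, against 16.1 and 9.82 CPM in the control libraries. The mutant libraries were nearly equal and the controls were not, control 2 being the lowest. The mean was 1.59-fold higher in Robo mutant cells and the log2 change 0.67 ± 0.32 (SE; edgeR, adjusted p = 0.898). Without control 2 the log2 change was 0.35 and without control 1 it was 1.07. Exons of Dll1 overlap those of the antisense gene A930024N18Rik, which had between 8 and 41 counts per library, against 400 to 1055 counts for Dll1.

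Jag2 (ENSMUSG00000002799, chromosome 12, 112907819 to 112929776, minus strand), which encodes a Jagged ligand, had 37.5 and 38.3 CPM in the Robo mutant libraries, against 47.9 and 45.8 CPM in the control libraries. Libraries of 1 genotype were close to each other and the groups did not overlap. The mean was 1.23-fold lower in Robo mutant cells. The log2 change of -0.30 had the smallest standard error among the 10, 0.14, but did not pass (edgeR, adjusted p = 0.889, unadjusted 0.0889).

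Jag1 (ENSMUSG00000027276, chromosome 2, 137081456 to 137116644, minus strand), which encodes the other Jagged ligand, had 5.46 and 1.58 CPM in Robo mutant libraries 1 and 2, against 9.97 and 1.89 CPM in control libraries 1 and 2. As with Notch3, Robo mutant 1 and control 1 were high and the remaining libraries low. The log2 change was -0.75 ± 1.05 (SE; edgeR, adjusted p = 1.00) and turned to 0.90 without control 1.

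Rbpj (ENSMUSG00000039191, chromosome 5, 53466152 to 53657362, plus strand), the factor through which all 4 mouse receptors signal, had 24.4 and 24.2 CPM in the Robo mutant libraries, against 40.5 and 34.3 CPM in the control libraries. The mutant libraries were within 1.01 times of each other and both lay under the controls. The log2 change was -0.62 ± 0.18 (SE). Its unadjusted p of 0.0212 in edgeR was the smallest among the 10 and its adjusted p was 0.680, or 0.434 in DESeq2, with a range of 0.201 to 1.00 over the alternatives. The value lay between -0.74 and -0.50 under every alternative and was -0.62 without Robo mutant 2. In Robo mutant 1 the acinar and stromal marker sums, 3476 and 1127 CPM, lay between those of the controls, while the immune and δ-cell sums, 74.8 and 2506 CPM, lay above both. The part of other cells in the Rbpj values was not tested. Rbpjl, the acinar paralogue of Rbpj and an acinar marker here, had 1.92 and 13.0 CPM in Robo mutant libraries 1 and 2, against 1.86 and 0.196 CPM in control libraries 1 and 2. It was named after its values were seen.

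The Hes and Hey genes did not separate the genotypes. Hes1 (ENSMUSG00000022528, chromosome 16, 30064384 to 30067796, plus strand), the main Notch target in pancreatic progenitors, had 27.7 and 16.9 CPM in Robo mutant libraries 1 and 2, against 18.0 and 10.8 CPM in control libraries 1 and 2. Robo mutant 1 was the highest and control 2 the lowest, while Robo mutant 2 lay just under control 1. The mean was 1.55-fold higher in Robo mutant cells and the log2 change 0.63 ± 0.40 (SE; edgeR, adjusted p = 0.941). It was 0.23 without Robo mutant 1 and 1.05 without control 1.

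Hes6 (ENSMUSG00000067071, chromosome 1, 91411483 to 91414038, minus strand), the antagonist of Hes1 that endocrine cells express, had 80.5 and 82.7 CPM in the Robo mutant libraries, against 99.5 and 82.0 CPM in the control libraries. Control 1 was the highest and the other 3 libraries lay close together. With up to 4763 counts in a library, the log2 change was -0.15 ± 0.15 (SE; edgeR, adjusted p = 0.999).

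Hey1 (ENSMUSG00000040289, chromosome 3, 8663359 to 8667256, minus strand), a Notch target of the related Hey family, had 0 and 30 counts in Robo mutant libraries 1 and 2, against 9 and 11 counts in control libraries 1 and 2. These are 0 and 0.660 CPM in the Robo mutant libraries and 0.188 and 0.270 CPM in the control libraries. A count of 0 in Robo mutant 1 allows up to 3 counts, or 0.0600 CPM. Robo mutant libraries were the highest and the lowest of the 4, and at this depth no difference between genotypes was detectable (log2 change 0.52, standard error 2.12; edgeR, adjusted p = 1.00).

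**Figure D3:**
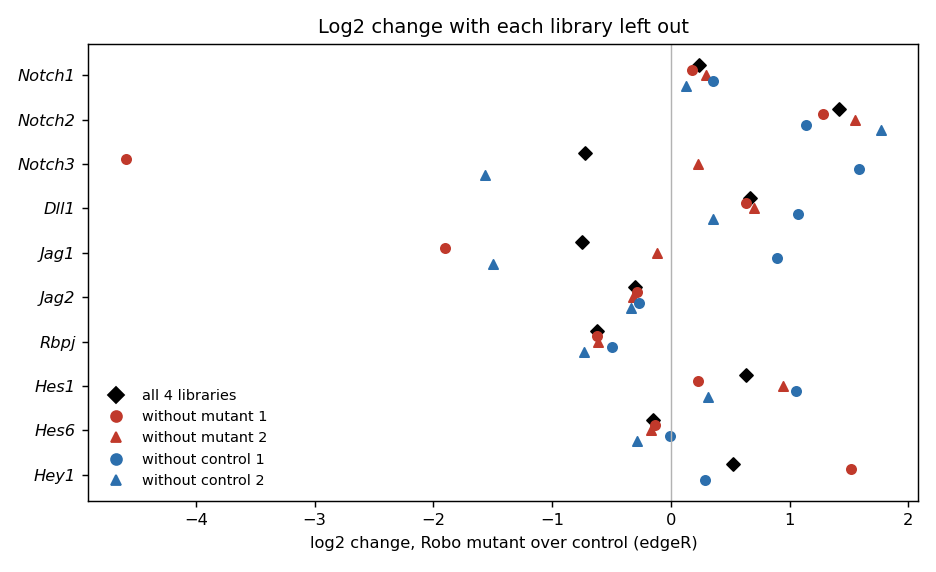
Log2 change (edgeR, Robo mutant over control) of each gene with all 4 libraries (black) and with 1 library left out (red, a Robo mutant library; blue, a control library). Notch3 runs from -4.59 to 1.59 and Jag1 from -1.90 to 0.90, whereas Jag2 stays between -0.33 and -0.27 and Rbpj between -0.74 and -0.50; Hey1 fell under the count filter without Robo mutant 2 or control 2 and has no point there.

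Notch3 and Jag1 had the same order of libraries, control 1 highest, then Robo mutant 1, control 2 and Robo mutant 2. This order was seen in 7 of the 12 stromal and pericyte markers and in 4.8% of all tested genes. Pdgfrb, a receptor gene of pericytes and fibroblasts, had 35.0 and 0 CPM in Robo mutant libraries 1 and 2, against 46.7 and 9.77 CPM in control libraries 1 and 2. Rgs5, a pericyte gene, had 18.8 and 0 CPM in the Robo mutant libraries, against 28.6 and 5.40 CPM in the control libraries. Both were named after their values were seen, and their libraries have the same order as those of Notch3. Cspg4, a pericyte gene too, was at 0 in Robo mutant 1 and control 1 and present in the other libraries, unlike Notch3. Col3a1, the most abundant of the list, had 615 and 8.93 CPM in the Robo mutant libraries, against 1338 and 426 CPM in the control libraries. In Robo mutant 2, where 7 of the 12 markers were above 0 and Pdgfra, Pdgfrb, Rgs5, Col1a1 and Des were at 0, Notch3 was at 2.29% and Jag1 at 15.9% of their highest library. The part of stromal transcripts in these values was not tested.

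None of the 7 tested genes among other Notch targets had the library order of Notch3. Heyl and Nrarp, named after their values were seen, were lowest in Robo mutant 2, whereas Hes7 and Myc were highest there, and Sox9 was at 74.6% of its highest library. Heyl, a Hey family gene of mural cells, had 14.04 and 1.03 CPM in Robo mutant libraries 1 and 2, against 13.9 and 5.72 CPM in control libraries 1 and 2. Nrarp, which encodes a feedback inhibitor of the pathway, had 6.18 and 0 CPM in the Robo mutant libraries, against 4.97 and 0.687 CPM in the control libraries. Heyl and Nrarp were higher in Robo mutant 1 and control 1 than in the remaining libraries. Hes1, Notch3 and Jag1 had the same split, 3 of the 10 members, as did 9 of the 12 stromal markers and 16.7% of all tested genes. Rbpj, Jag2, Dll1, Notch1 and Hes6 did not have it, and each was at 46.5% of its highest library or more in every library. Endothelial markers were near 0, with Kdr, Flt1, Tek, Tie1 and Emcn at 0 in 3 libraries and present only in control 2. The 12 summed to 6.04 and 6.93 CPM in Robo mutant libraries 1 and 2, against 9.25 and 21.4 CPM in control libraries 1 and 2.

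**Figure D4:**
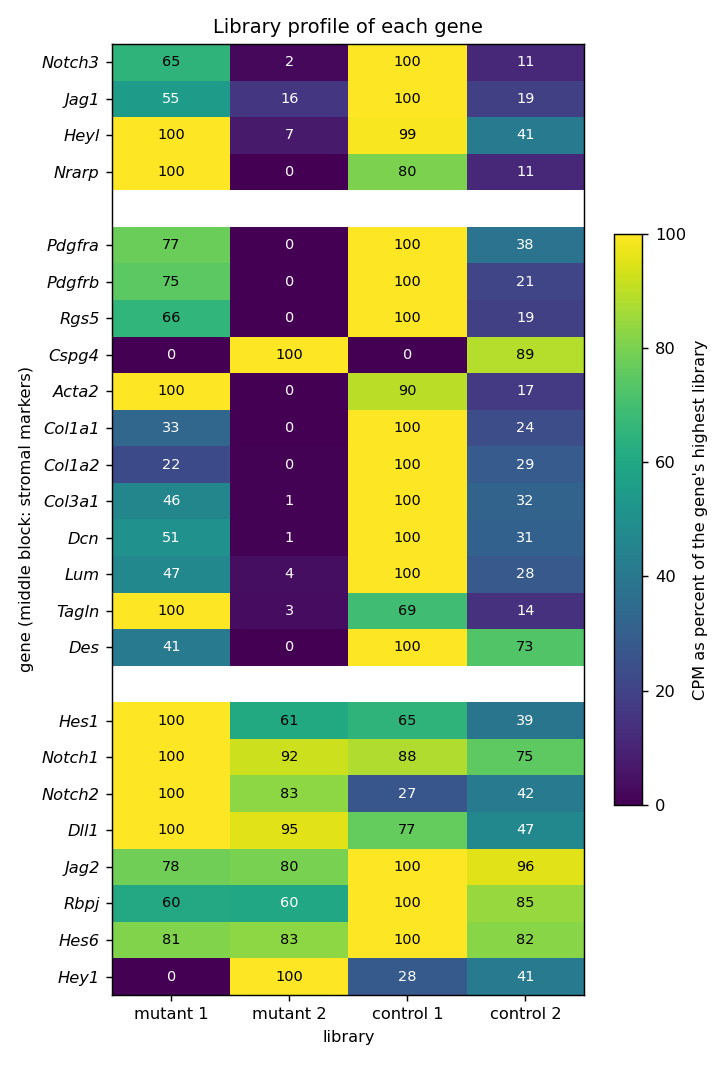
CPM of each gene as a percent of its highest library, in the 4 libraries (columns, Robo mutant left). The top block holds Notch3, Jag1, Heyl and Nrarp, the middle block the 12 stromal markers and the bottom block the other members; in Robo mutant 2 Notch3 is at 2.29% and Pdgfrb at 0, while Rbpj is at 59.8%.

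The rest of the pathway was described in 9 lists of 78 further genes in the table, of which 70 were tested. Robo mutant libraries had the higher fitted level in 45 and the lower in 25, where 48.7% of all tested genes were higher. Their median log2 change was 0.09, or 0.09 with genes at 0 in both Robo mutant libraries set at their bound. In 25 of the 70, or 35.7%, the genotypes did not overlap, 17 with the Robo mutant libraries above and 8 with them below. Of all tested genes 36.6% did not overlap, 16.1% above and 20.4% below. None passed edgeR or DESeq2 over all genes, and 5 (7.14%) had an unadjusted p under 0.05 in edgeR, next to 6.21% of all tested genes.

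**Figure D5:**
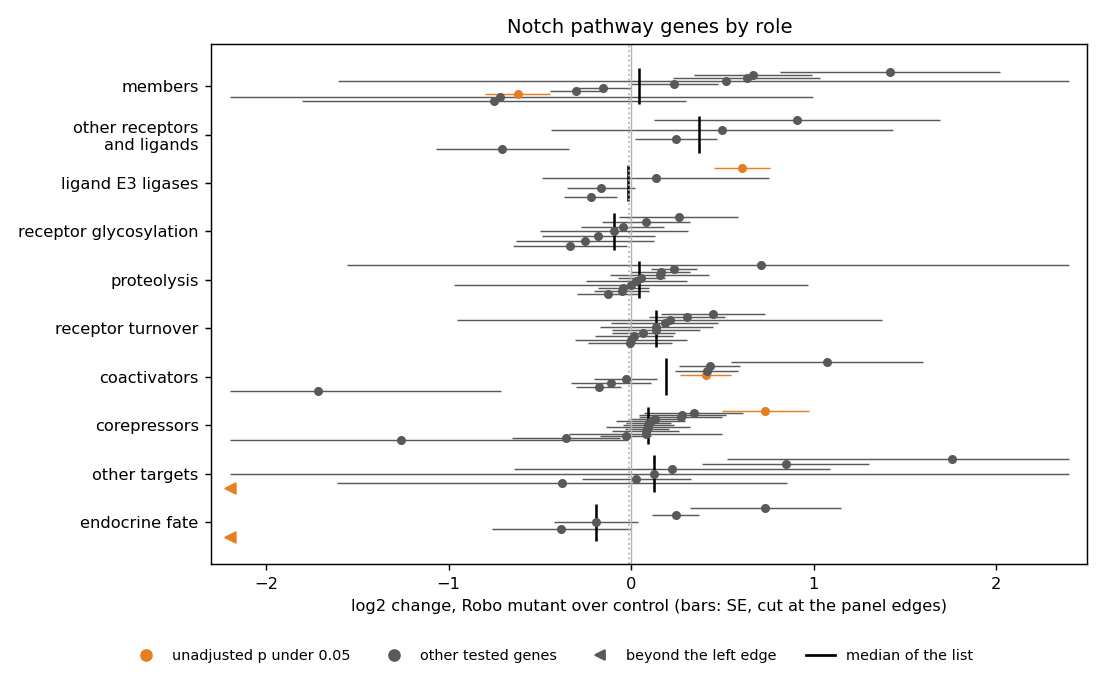
Log2 change (Robo mutant over control, edgeR) with its standard error for the 10 members and for the tested genes of 9 other lists of the pathway, by role; black lines mark list medians and orange points an unadjusted p under 0.05. List medians lie between -0.19 and 0.37, and arrows at the left edge, Hey2 among them, stand for genes at 0 in both Robo mutant libraries.

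Among other receptors and ligands, 3 of 4 tested genes had a higher fitted level. Dll4, which encodes a further Delta-like ligand, had 9.92 and 7.13 CPM in the Robo mutant libraries, against 16.6 and 11.2 CPM in the control libraries, so that it was lower in both where Dll1 was higher. Dll4 is also a gene of endothelial cells, and the endothelial marker sum was lower in both Robo mutant libraries. Of the 12 markers, Egfl7 had the library order of Dll4, at 2.30 and 0.726 CPM in Robo mutant libraries 1 and 2 and 5.12 and 2.67 CPM in control libraries 1 and 2, while Kdr, Flt1, Tek, Tie1 and Emcn were above 0 in control 2 alone. These markers were named after their values were seen, while Esam was the most abundant of the 12. The sum of the 12 had another order than Dll4. It was highest in control 2 at 21.4 CPM, then 9.25 in control 1, 6.93 in Robo mutant 2 and 6.04 in Robo mutant 1. Only in control 2 was the sum above the Dll4 value. The part of endothelial transcripts in Dll4 was not tested. Its log2 change was -0.71 ± 0.36 (SE; edgeR, adjusted p = 0.908). Notch4, the fourth receptor gene, had 2.16 and 1.45 CPM in the Robo mutant libraries, against 0.940 and 0.982 CPM in the control libraries (log2 change 0.91, standard error 0.78). Dlk1, a noncanonical ligand gene, was the most abundant of the list, at 68.2 and 298 CPM in Robo mutant libraries 1 and 2 and 206 and 53.3 CPM in control libraries 1 and 2, with wide overlap.

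Ligands are activated for signalling by E3 ubiquitin ligases. Of these, Mib2 had 52.3 and 45.9 CPM in the Robo mutant libraries, against 32.4 and 32.0 CPM in the control libraries. Both mutant libraries were above both controls, and the log2 change was 0.61 ± 0.15 (SE; edgeR, adjusted p = 0.680, unadjusted 0.0135). Mib1, its paralogue and the most abundant of the 4 ligases, went the other way, at 60.6 and 56.2 CPM in the Robo mutant libraries and 73.3 and 63.0 CPM in the control libraries (log2 change -0.22, standard error 0.15). In the list, 2 were higher and 2 lower.

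The genes that process receptors lay on both sides of 0, and none passed the test. All 7 tested genes of receptor glycosylation overlapped between genotypes, with 2 higher and 5 lower and a median log2 change of -0.10. Their smallest unadjusted p was that of the xylosyltransferase gene Xxylt1 (log2 change -0.33, standard error 0.31), followed by Eogt (0.26, standard error 0.33), and Poglut1, which encodes an O-glucosyltransferase, was the most abundant. Of 10 genes of proteolysis, 7 were higher and 3 lower, with a median of 0.04. Adam10, which encodes the protease of the first ligand-induced cut, had 62.7 and 60.1 CPM in the Robo mutant libraries, against 52.0 and 52.3 CPM in the control libraries (log2 change 0.24, standard error 0.13; edgeR, adjusted p = 0.922). Ncstn, which encodes the γ-secretase subunit nicastrin, was the most abundant at 316 and 299 CPM in Robo mutant libraries and 305 and 287 CPM in control libraries, and Aph1a, another subunit gene, had a log2 change of 0.16 ± 0.16 (SE). Of 10 genes of receptor turnover, 8 were higher and 2 lower, with a median of 0.14. They included Fbxw7, whose product marks the intracellular domain for degradation (log2 change 0.31, standard error 0.21), and Dtx3l (0.45, standard error 0.29), and the ligase gene Nedd4 was the most abundant.

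Nuclear cofactors formed 2 lists. Of 8 coactivators, 4 were higher and 4 lower, with a median log2 change of 0.19. Crebbp, which encodes the acetyltransferase CBP, had 57.1 and 58.1 CPM in the Robo mutant libraries, against 45.7 and 41.1 CPM in the control libraries. Its log2 change was 0.41 ± 0.14 (SE; edgeR, adjusted p = 0.764, unadjusted 0.0379). Kat2a, another acetyltransferase gene, had 37.4 and 38.7 CPM in the Robo mutant libraries, against 30.1 and 26.5 CPM in the control libraries (log2 change 0.43, standard error 0.17). Snw1, the most abundant coactivator gene, was lower in both (log2 change -0.18, standard error 0.12).

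Of 15 corepressors, 12 were higher and 3 lower, with a median log2 change of 0.09. Ctbp2, which encodes a corepressor recruited to RBPJ, had 22.2 and 24.04 CPM in the Robo mutant libraries, against 15.4 and 12.4 CPM in the control libraries. The log2 change was 0.73 ± 0.24 (SE; edgeR, adjusted p = 0.735, unadjusted 0.0311). The Groucho family gene Tle4 had a log2 change of 0.34 ± 0.27 (SE), and Aes, the most abundant of the list, 0.09 ± 0.12 (SE).

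Of 7 tested genes among other targets, 5 were higher and 2 lower, and Hes2, Hes3 and Hes5 were at 0 counts throughout, where up to 3 counts per library could have gone undetected. Hey2, a Hey family gene, had 0 counts in both Robo mutant libraries, against 46 and 17 counts in control libraries 1 and 2, at least 10.9-fold lower when 3 counts per library are taken as the floor (edgeR, adjusted p = 0.680). Ccnd1, which encodes cyclin D1, was the most abundant and had 88.8 and 41.3 CPM in Robo mutant libraries 1 and 2, against 27.4 and 45.0 CPM in control libraries 1 and 2, so that the groups overlapped. Endocrine fate genes were higher in 2 and lower in 3 of 5 tested cases, with a median log2 change of -0.19. Neurod1, an endocrine factor gene downstream of Neurog3, had 510 and 509 CPM in the Robo mutant libraries, against 425 and 436 CPM in the control libraries (log2 change 0.24, standard error 0.13; edgeR, adjusted p = 0.917). A gene at 0 in both Robo mutant libraries enters the test only with enough counts in both controls.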

How the data were processed

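Messenger RNA of flow-sorted cells was sequenced in 2 Robo mutant and 2 control libraries made with SMART-Seq v4 and Nextera XT, per the labels' protocols. The submitters' processing notes list STAR 2.5.3a and RSEM 1.3.0 on GRCm38, besides bcl2fastq 2.20.0.422, and edgeR 3.16.5 with no role. No source used here names the annotation release. The authors' deposited table, named for RSEM, holds whole numbers that were taken to be expected counts per gene and library. Its name also calls the values normalized, but the totals differ by 1.28 times between libraries. If the authors had rescaled the libraries, the totals would not be the depth and counting limits would be approximate. The table has 0 columns of other samples.

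Genes that reached 10 counts in 2 or more libraries were tested two-sided with edgeR 4.0.16 (TMM factors, glmQLFit and glmQLFTest, R 4.3.3), adjusted by the Benjamini-Hochberg method over all 16517 genes at 0.05. DESeq2 1.42.0, limma 3.58.1 on log2(CPM + 1), other scalings, other filters and each library left out were the alternatives. Positions and exon lengths came from GENCODE M21 (GRCm38, 51719 identifiers matched), and start-site sequences from RefSeq (GRCm38.p6). The members, lists and tests were chosen with earlier results of these data known. All members are named. From each other list the rule names genes with an unadjusted p under 0.05, at least the 2 of smallest p, and the most abundant, and from marker lists the most abundant. A further result of this rule is not reported here. Libraries are numbered by accession, so the numbers do not pair them.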

Additional observations from a re-analysis of the deposited data

How the results depend on the processing

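No paired analysis was possible because the labels give no replicate numbers shared between the genotypes. In 104 of 107 recomputed log2 changes of the members the direction and the side of the threshold were as reported. The exceptions were Notch3 at 0.23 without Robo mutant 2 and 1.59 without control 1, and Jag1 at 0.90 without control 1. With 1 library left out, Notch3 ran from -4.59 to 1.59 and Jag1 from -1.90 to 0.90. The cause was not tested. No alternative called a member. Over all genes DESeq2 called 151, and leaving out 1 library gave 0 to 1 calls with edgeR, the 1 without Robo mutant 2. The median log2 change of the members ran from -0.28 (without control 2) to 0.63 (without control 1) with 1 library left out, and from -0.14 (a minimum of 50 counts, which leaves out Hey1) to 0.06 under the other settings, so its sign is not settled. The number of members whose genotypes did not overlap was 6 to 8 with 1 library left out, an alternative chosen after seeing the data, where 57.6% to 78.6% of all tested genes did not overlap. Hey1 fell under the filter without Robo mutant 2, without control 2 and at the minimum of 50 counts, and gave no value there. With 2 libraries per genotype, the detection of differences is limited by the spread between libraries, and for Hey1 also by its counts. Large differences can miss the threshold too. Robo1 and Robo2, with 3.52-fold and 3.32-fold lower means in Robo mutant cells, had an adjusted p of 0.680 in edgeR.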
